A study of Mus musculus with 2 samples.

Results

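The FOS and JUN immediate-early genes Fos, Fosb, Fosl1, Fosl2, Jun, Junb, Jund and Atf3 were examined for EGR1 binding in the mouse frontal cortex. A peak of the EGR1 list was counted as a family peak when its centre lay in the gene body of 1 of the 8 genes, or within 10 kb of a transcription start site (TSS) of that gene in GENCODE release M21. The rule found 14 peaks of the 12014 in the list. They fell at 7 of the 8 genes, and Fos had 0. EGR1 ChIP-seq, in which an antibody pulls down the DNA fragments that EGR1 occupies, was done on frontal cortices of 129SvEv/C57BL/6N F1 hybrid males aged 6 weeks. Each of the 2 ChIP experiments pooled cortices from 4 to 5 animals. All mice came from this 1 cross, and the series compares no conditions. The list holds the merged peaks of both ChIP experiments with the irreproducible discovery rate (IDR) of each, which is read like a q-value and takes low values where both replicates place a peak high in their ranking. The list gives no read counts, so the depth behind a peak is unknown, no peak height can be compared and no spread between replicates can be given. The tissue is a mixture of neurons and other cells, and a peak list does not show in which of them EGR1 was bound. Positions are on mm10, counted from 1.

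FOS and JUN proteins are basic leucine zipper factors that pair with each other to form AP-1, which binds DNA at sites such as TGAGTCA. In neurons several of these genes are transcribed within minutes of synaptic activity, as is Egr1. Factors already present in the cell, among them SRF at CArG boxes and CREB at cAMP response elements (CREs), switch them on without new protein. EGR1 is a zinc finger protein that binds GC-rich DNA, and its motif was searched here as the letters GCGGGGGCG or GCGTGGGCG on either strand.

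The sequences that carry the results are the peaks closest to the family genes and the 7 exact EGR1 motifs in them. They were read from the RefSeq genome sequence of GRCm38.p6, the assembly of mm10. First are the 7 motifs with 10 bases to each side, on the strand that reads the motif, with the motif in capitals.
Fosl2, upstream, chr5:32133308-32133336, minus strand: gtaacgcgggGCGGGGGCGggggagaagg
Fosl2, 5′ untranslated region, chr5:32136383-32136411, plus strand: ccggctgcgcGCGGGGGCGgaagggcgcg
Junb, downstream, chr8:84976361-84976389, plus strand: aatggaggggGCGTGGGCGcggtggggct
Junb, coding exon, chr8:84978107-84978135, plus strand: tgtcccggagGCGTGGGCGtcgtcgtgat
Junb, far upstream, chr8:84986211-84986239, minus strand: accccgcattGCGGGGGCGcgtgcgtcgt
Jund, promoter, chr8:70698864-70698892, plus strand: ccaatggcgaGCGGGGGCGgtgagctcat
Jund, downstream, chr8:70700740-70700768, plus strand: ggggaacgcgGCGTGGGCGcgggccgtgc
The motif was GCGGGGGCG at both Fosl2 peaks, at the far upstream Junb peak and at the Jund promoter, and GCGTGGGCG at the other 3.

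Next are the peaks at the genes' starts, and the far upstream Junb peak for its low IDR, each on the strand of its gene and without the parts annotated as untranslated regions. Capitals mark each stretch of 9 bases that equals the motif or differs from it at 1 base, on either strand.
Jund promoter peak, chr8:70698778-70698948, plus strand: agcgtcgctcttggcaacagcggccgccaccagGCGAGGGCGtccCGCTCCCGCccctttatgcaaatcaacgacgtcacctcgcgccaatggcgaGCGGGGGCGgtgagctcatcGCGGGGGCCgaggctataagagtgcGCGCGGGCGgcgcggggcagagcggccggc
Junb promoter peak, chr8:84978770-84978921, minus strand: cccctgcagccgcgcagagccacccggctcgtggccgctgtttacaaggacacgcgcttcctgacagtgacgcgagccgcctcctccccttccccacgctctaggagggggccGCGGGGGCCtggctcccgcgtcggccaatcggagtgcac
Junb coding exon peak, chr8:84977994-84978243, minus strand: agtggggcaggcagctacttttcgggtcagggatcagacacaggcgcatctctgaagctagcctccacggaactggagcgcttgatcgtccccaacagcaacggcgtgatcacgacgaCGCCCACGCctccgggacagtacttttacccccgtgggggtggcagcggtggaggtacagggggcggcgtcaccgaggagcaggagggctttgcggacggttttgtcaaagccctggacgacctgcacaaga
Junb far upstream peak, chr8:84986111-84986365, minus strand: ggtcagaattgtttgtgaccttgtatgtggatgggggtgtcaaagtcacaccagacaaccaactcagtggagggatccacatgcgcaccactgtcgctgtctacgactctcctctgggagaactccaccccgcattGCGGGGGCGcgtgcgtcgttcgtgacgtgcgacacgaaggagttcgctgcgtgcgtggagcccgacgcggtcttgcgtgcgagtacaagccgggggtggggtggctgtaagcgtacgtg
Jun upstream peak, chr4:95052785-95052921, minus strand: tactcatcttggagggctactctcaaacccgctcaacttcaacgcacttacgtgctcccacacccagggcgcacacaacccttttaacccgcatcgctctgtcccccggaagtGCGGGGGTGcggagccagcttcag
Fosb intron peak, chr7:19308588-19308837, minus strand: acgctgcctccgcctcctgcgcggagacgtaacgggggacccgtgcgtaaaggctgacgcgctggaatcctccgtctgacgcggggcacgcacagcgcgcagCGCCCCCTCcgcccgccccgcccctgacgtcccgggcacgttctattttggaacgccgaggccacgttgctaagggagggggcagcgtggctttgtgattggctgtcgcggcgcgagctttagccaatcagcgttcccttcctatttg
Fosl2 promoter peak, chr5:32135704-32135800, plus strand: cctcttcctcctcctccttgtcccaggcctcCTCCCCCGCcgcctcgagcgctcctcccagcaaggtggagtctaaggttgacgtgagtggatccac
Atf3 peak at the downstream start, chr1:191183341-191183555, minus strand: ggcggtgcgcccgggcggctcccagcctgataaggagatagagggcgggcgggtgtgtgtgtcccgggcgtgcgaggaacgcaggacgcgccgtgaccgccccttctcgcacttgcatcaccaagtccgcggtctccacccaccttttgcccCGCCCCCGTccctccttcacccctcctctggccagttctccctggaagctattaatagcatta
The Jund promoter holds 5 such stretches, 1 of them exact, the Junb coding exon and far upstream peaks hold 1 exact stretch each, and the Junb promoter, Jun, Fosb, Fosl2 promoter and Atf3 peaks hold 1 each, with a mismatch.

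Of the 8 family genes, 7 had a peak in the gene body or within 10 kb of a TSS (87.5%, 95% Wilson interval 52.9 to 97.8%), where 39.6% of the 21938 protein-coding genes did. Counting only peaks centred 1 kb or less from a TSS left 6 family genes (75%, 40.9 to 92.9%), namely Fosb, Fosl2, Jun, Junb, Jund and Atf3, beside 28.1% of protein-coding genes. CpG-rich promoters carry many EGR1 peaks: among the 12425 protein-coding genes with a promoter CpG ratio of 0.6 or more at any start, 45.1% had a peak within 1 kb. Of the family, all but Jun belong to this class, 7 genes, and 5 of them had such a peak. Jun falls just short of the limit, with a ratio of 0.594 at its single start, and it had such a peak too. Junb held 5 peaks, Fosl2 3 and Jund 2, and the other 4 genes with a peak held 1 each. Across protein-coding genes 13.7% had 2 or more peaks and 0.802% had 5 or more, so by this rule Junb sits in a small class. Only 3 of the 5 Junb peaks had the TSS of Junb as the nearest. Intervals cover counting error only. The 8 genes were chosen with earlier results of these data known, so their counts are a description beside the background and no test was made.

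**Figure D1:**
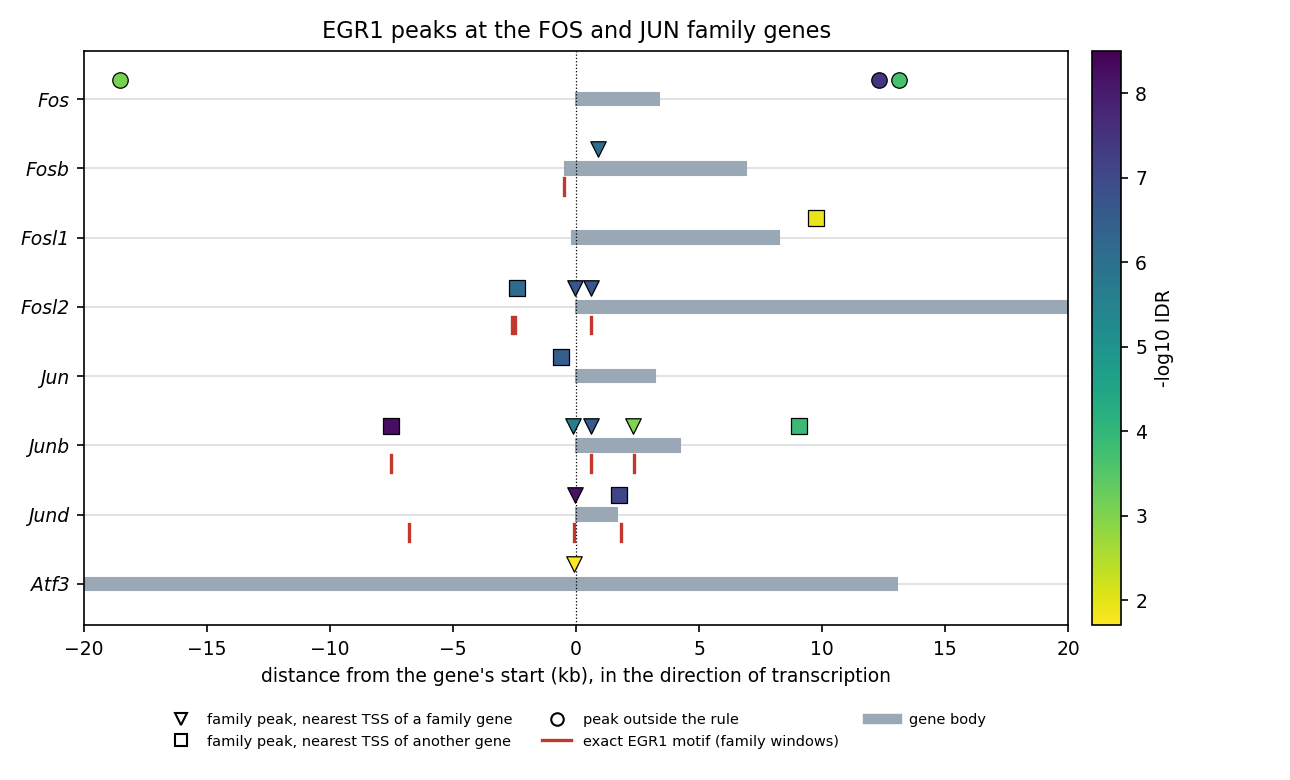
Centres of EGR1 peaks (symbols, coloured by −log10 IDR) and exact EGR1 motifs (red ticks) around each family gene, by distance in kb from the start of a coding transcript, with the gene body in grey. Junb, Fosl2 and Jund hold 10 of the 14 family peaks, and the 3 peaks nearest to Fos (circles) all lie beyond 10 kb.

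A window of 10 kb reaches into neighbouring genes. The nearest TSS belonged to a family gene for 8 of the 14 peaks, at 5 genes (Fosb, Fosl2, Junb, Jund and Atf3). Over all protein-coding genes, 63.7% of the 13587 pairs of a gene and a peak in its window had that gene's own TSS as the nearest. The other 6 family peaks lay closer to Ccdc85b, Gm10463, Junos, Prdx2, Hook2 or Gm11175. Of these, Gm10463, Junos and Gm11175 are not annotated as protein-coding. Where only transcripts that GENCODE tags as basic and protein-coding gave a TSS, the nearest was of a family gene for 11 of the 14 peaks. The share over all pairs was not recomputed that way. The peak list does not say which gene a peak acts on.

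Fos encodes the partner of JUN for which the family is named, and is the gene most used as a marker of recently active neurons. Its body (chr12:85473890-85477273, plus strand) and the 10 kb around its 3 annotated starts held 0 peaks and 0 exact EGR1 motifs. The nearest peak fell just outside the rule. It lies at chr12:85486113-85486325, with its centre 11308 bp past the last annotated Fos start, in no annotated gene, and the nearest TSS of any gene is that of Fos. Its IDR of 3.41e-08 ranks 248 in the list, lower than the IDR of 12 of the 14 family peaks.
Downstream peak of Fos, plus strand, with motif stretches in capitals as above: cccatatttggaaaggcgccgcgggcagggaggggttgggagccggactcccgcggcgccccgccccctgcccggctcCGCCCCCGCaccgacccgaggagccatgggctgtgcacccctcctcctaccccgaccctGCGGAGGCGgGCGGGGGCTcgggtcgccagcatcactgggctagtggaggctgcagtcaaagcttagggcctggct
It holds 1 exact motif and 2 stretches with 1 mismatch, and 73.7% of its bases are G or C. A second downstream peak (chr12:85486901-85487150) had an IDR of 0.000212, and an upstream peak (chr12:85455171-85455536), 18537 bp before the start, had an IDR of 0.000796. Neither held an exact motif. The family peak just inside the rule was that of Fosl1, at 9518 bp. A window of 25 kb therefore gave Fos 3 peaks and all 8 genes at least 1. The share of all protein-coding genes with a peak was not computed at 25 kb, and a wider window can only raise it.

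Fosb, whose splice form ΔFosB accumulates in neurons after repeated stimulation, had 1 peak, at chr7:19308588-19308837 with an IDR of 8.04e-07. Its centre lies 888 bp inside the start of a coding transcript at 19309600. That is the innermost of 4 annotated starts and the only one within 1 kb. The centre falls in an intron of the coding transcripts and in an exon of a noncoding one. The peak had no exact motif and 1 stretch with a mismatch (GAGGGGGCG), 19 bp from the centre. An exact motif does stand in the Fosb promoter, at chr7:19310087-19310095, at −40 bp from the outermost start (19310051). That motif lies in no peak, 1379 bp from the peak centre. Fosb was the gene of the family where the motif at the start and the peak were apart.

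Fosl1 encodes FRA1, a FOS protein without the strong activation domain of FOS. Its 1 peak (chr19:5457315-5457564, IDR 0.0119) lies 1493 bp beyond the end of the gene, in the 5′ untranslated region of Ccdc85b and 65 bp from the Ccdc85b TSS. Its IDR is higher than that of 91.3% of the list. No peak centre lay within 1 kb of a Fosl1 start, and no exact motif was found in the gene or within 10 kb of its starts. Fosl1 and Fos were the members without a peak centre within 1 kb of a start of their own.

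Fosl2 encodes FRA2, a close relative of FRA1, and had 3 peaks around its start. The promoter peak (chr5:32135704-32135842), centred 28 bp upstream of the start, had an IDR of 1.80e-07. The peak in the 5′ untranslated region (chr5:32136319-32136517) had an IDR of 1.94e-07 and lies 645 bp from the promoter peak, centre to centre. These 2 peaks had nearly the same IDR, at ranks 1253 and 1307. The upstream peak (chr5:32133277-32133480, IDR 7.15e-07) is centred 2423 bp before the start and 207 bp from the TSS of Gm10463, an annotation that GENCODE holds as unproven. The promoter peak held no exact motif, while the peaks to either side held 1 each. A further exact motif at chr5:32133193-32133201 lay outside the upstream peak, 181 bp from its centre.

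Jun encodes the main JUN protein, which can pair with itself or with FOS. It had 1 peak, the narrowest of the family at 137 bp (chr4:95052785-95052921), with an IDR of 3.26e-07 at rank 1794. The centre lies 631 bp upstream of the single Jun start and only 98 bp from a start of Junos, a noncoding gene on the opposite strand. It stands between these starts, inside an intron of a longer Junos transcript. Neither the peak nor the 10 kb around the Jun start held an exact motif. The closest match was GCGGGGGTG, 49 bp from the peak centre.

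Junb encodes a JUN protein that activates more weakly than JUN, and had the most peaks of the family. The promoter peak (chr8:84978770-84978921), 127 bp upstream of the start, had an IDR of 2.59e-06. A peak with a lower IDR, 2.31e-07, lies in the single coding exon (chr8:84977994-84978243), where the motif GCGTGGGCG is 3 bp from the peak centre. All 250 bases of that peak are coding sequence. A peak with a higher IDR, 0.000995 (chr8:84976261-84976524), lies 518 bp past the end of the coding transcript and 150 bp inside the start of a noncoding Junb transcript. It too held GCGTGGGCG, 17 bp from the centre. These 3 were the Junb peaks whose nearest TSS was that of Junb.

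The peak of the family with the lowest IDR lies far upstream of Junb (chr8:84986111-84986365). Its IDR of 5.33e-09 ranks 10 in the whole list. The centre is 7520 bp upstream of Junb and 4365 bp from the TSS of Hook2, a linker protein of microtubule transport, and lies in no annotated gene. The motif is GCGGGGGCG, 13 bp from the centre. It was the 1 family peak of the 14 that was farther than 1 kb from any TSS. The fifth Junb peak (chr8:84969524-84969773, IDR 0.000127) covers the 5′ untranslated regions of Prdx2, a peroxide-reducing enzyme, and Rnaseh2a, a subunit of ribonuclease H2, with its centre 37 bp from the Prdx2 TSS. It is the family peak with no motif stretch at all, exact or with 1 mismatch.

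Jund encodes the JUN protein that is present at rest as well as after stimulation. Its promoter peak (chr8:70698778-70698986), centred 67 bp upstream of the single start, had an IDR of 6.53e-09 at rank 17, the lowest of any family peak within 1 kb of a start. The exact motif GCGGGGGCG is 4 bp from the peak centre and at −71 bp from the start. The 4 stretches with 1 mismatch lie 16 to 67 bp from the centre. The second Jund peak (chr8:70700585-70700824, IDR 8.08e-08, rank 764) has its centre 88 bp past the end of the gene, 1822 bp from the first, with GCGTGGGCG 50 bp from its centre. Its nearest TSS was that of Gm11175, an antisense transcript, at 624 bp. Jund and Junb are both short genes on chromosome 8 that carry a peak with a motif past the end of the coding transcript in addition to a promoter peak. How many other genes share this arrangement was not counted, and the Junb peak lies at the start of a noncoding Junb transcript. A further exact motif upstream of Jund, at chr8:70692134-70692142, lies in no peak.

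Atf3 encodes a stress-induced member of the ATF group that pairs with JUN proteins. It has 2 groups of starts. The peak (chr1:191183306-191183555) is at the downstream group, 90 bp upstream of the start at 191183340, far from the upstream one. Its IDR of 0.0187 is close to the limit of 2% and higher than that of 98.9% of the list. The peak held 1 stretch with a mismatch (ACGGGGGCG) and no exact motif. Atf3 and Fosl1 are the 2 genes that lost their peak once the limit on the IDR was set to 0.01.

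The family peaks had low IDR values. The median was 5.21e-07, against 0.000325 over the 11938 peaks on assembled chromosomes and 7.94e-05 over the 6983 peaks within 1 kb of a TSS. An IDR of 1e-06 or less was given to 9 of the 14 family peaks (64.3%, 38.8 to 83.7%), to 21.6% of all peaks and to 29.0% of those within 1 kb of a TSS. Several of the 14 peaks share a locus, so they are not independent and this interval may be too narrow. Both the Junb far upstream peak and the Jund promoter peak were among the 100 peaks with the lowest IDR in the list. The 5 family peaks above 1e-06 were those of Fosl1 and Atf3 and 3 of the Junb peaks. The IDR ranks how alike peaks were in both replicates, and it is not a measure of how much EGR1 was bound.

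**Figure D2:**
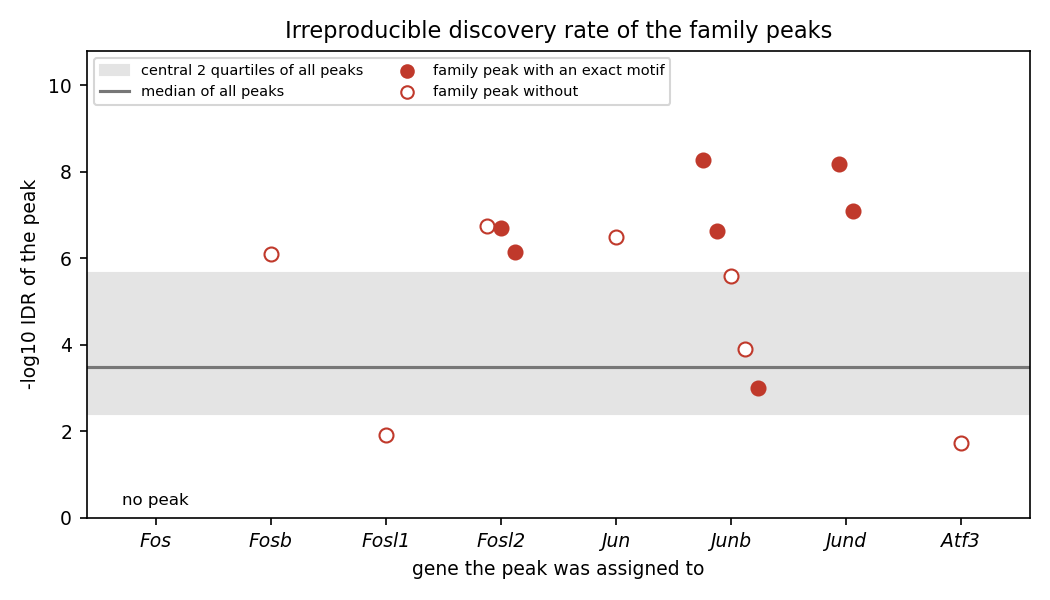
−log10 IDR of each family peak by gene, filled where the peak holds an exact EGR1 motif, with the median (line) and central 2 quartiles (band) of all peaks on assembled chromosomes. Higher points have a lower IDR: the Junb and Jund peaks at the top have 5.33e-09 and 6.53e-09, and Fosl1 and Atf3 lie under the band.

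An exact EGR1 motif was present in 7 of the 14 family peaks (50%, 26.8 to 73.2%), 2 at Fosl2, 3 at Junb and 2 at Jund, beside 16.6% of all peaks. The share of all peaks with the motif was 22.8% within 1 kb of a TSS and 34.5% among the 2574 peaks at or under an IDR of 1e-06. The 14 peaks come from few loci, and Fosl2, Junb and Jund gave every exact motif. Allowing 1 mismatch raised the family count to 13 of 14 and the share of all peaks to 69.8%. No family peak held more than 1 exact motif, as 1.15% of all peaks did. The exact motifs lay 3 to 56 bp from the peak centres, with a median of 17 bp, and 5 of the 7 were within 25 bp. Over the 1987 peaks with a motif the median was 23 bp and 55.1% were within 25 bp.

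**Figure D3:**
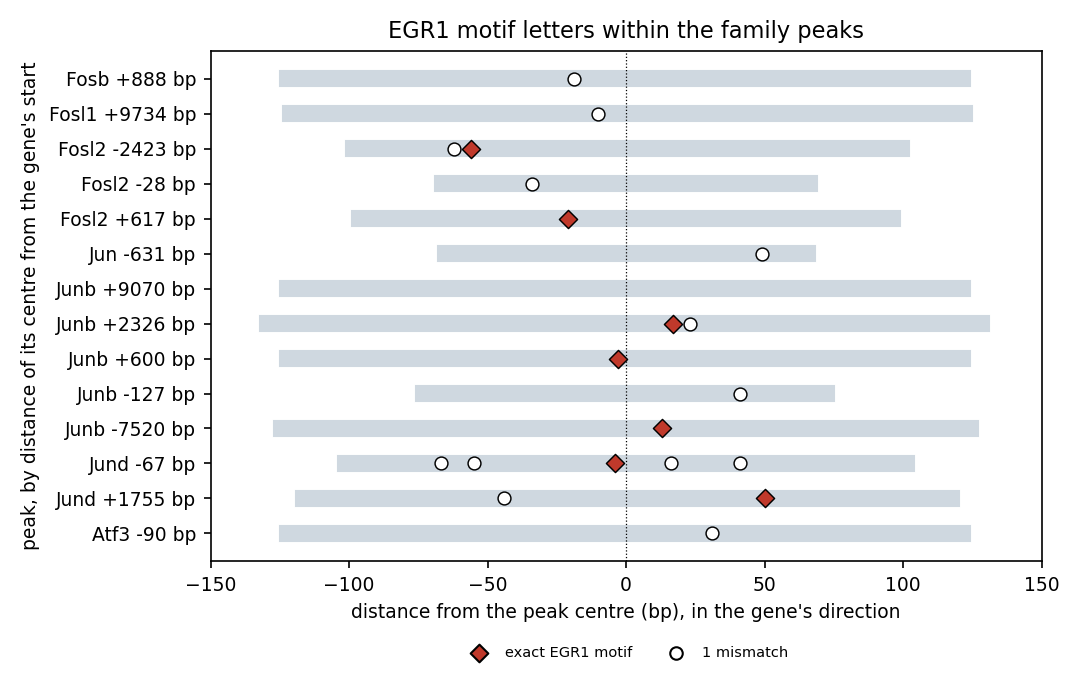
Exact EGR1 motifs (red diamonds) and stretches with 1 mismatch (open circles) within each family peak (grey bar), by distance in bp from the peak centre in the direction of the gene. Each peak is labelled by the distance of its centre from the start of a coding transcript. The diamonds at the Jund promoter and in the Junb coding exon are 4 and 3 bp from the centre.

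Read from the motif instead of the peak, 10 exact motifs stood in the windows of the 8 genes and 7 of them lay in a peak, where 33.3% of the 5969 such motifs around protein-coding genes did. Within 1 kb of a TSS, 4 of 5 lay in a peak, beside 45.7% of 3626. The motifs outside peaks were that of the Fosb promoter, 1 upstream of Fosl2 and 1 upstream of Jund. Fos, Fosl1, Jun and Atf3 had no exact motif in their windows.

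The family peaks were GC-rich. The median share of G and C bases was 66% and ranged from 59.9% at Jun to 72.4% at the Junb promoter, with 60.4% over all peaks and 66% over peaks within 1 kb of a TSS. The CpG ratio, the observed number of CG pairs over that expected from the base content, had a median of 0.81 in the family, 0.60 over all peaks and 0.78 within 1 kb of a TSS. It was above 1 in 4 family peaks, those in Fosb (1.14), in the 5′ untranslated region of Fosl2 (1.14), at the Jund promoter (1.11) and far upstream of Junb (1.04). The lowest was 0.54 at the Fosl2 promoter. The median width was 245 bp, near the 250 bp of all peaks.

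**Figure D4:**
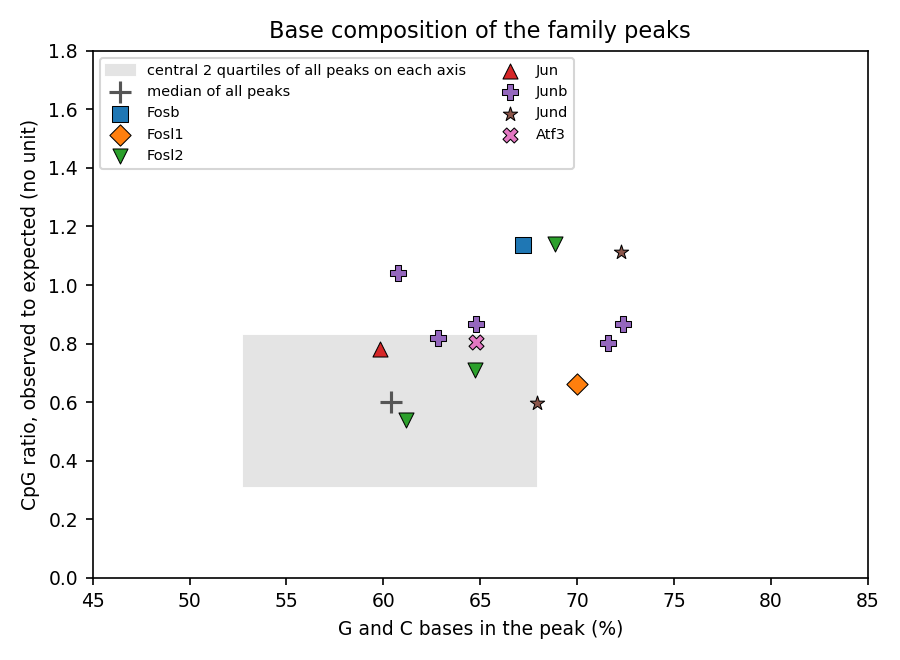
Share of G and C bases (x axis, %) and CpG ratio (y axis) of the 14 family peaks, by gene, with the median (cross) and the central 2 quartiles on each axis (box) of all peaks on assembled chromosomes. Every family peak but that of Jun lies to the right of the cross, and the 4 peaks above a ratio of 1 belong to Fosb, Fosl2, Jund and Junb.

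Sites of AP-1 and of factors that switch on several of the family genes were searched in the same sequences. None of the 14 peaks held an AP-1 site (TGAGTCA or TGACTCA, which read as each other on the opposite strand), a CRE (the letters TGAC followed by GTCA, the same on both strands) or a CArG box, which 4.72%, 1.30% and 0.938% of all peaks did. Among all peaks within 1 kb of a TSS, where 13 of the 14 family peaks lie, the shares were 2.41%, 1.96% and 0.788%. With 14 peaks, a count of 0 has an upper 95% Wilson limit of 21.5%. Around the starts such letters do occur. A CArG box stood within 1 kb of a start of Fos, Fosb and Junb, as at 19.6% of protein-coding genes, and that of Junb is in the promoter (250 bases before to 50 after) of its noncoding transcript. A CRE stood in the Jund promoter, outside the peak, as in 1.94% of all promoters. An AP-1 site stood within 1 kb of a start of Fosl1, Fosl2 and Atf3, and 45.5% of protein-coding genes have one there. The EGR1 motif itself was in the promoter of Fosb and of Jund, beside 3.94% of all 93513 promoters. These promoter shares, for the CRE as well, count each annotated start once. A family gene was named if any of its starts had the letters, so the units differ. No share of genes was computed for promoters. Within 1 kb of a start the EGR1 motif stood at 4 of the 8 genes, Fosb, Fosl2, Junb and Jund, and at 13.97% of protein-coding genes. A match of letters does not show that a factor was bound.

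The other genes of the pathway were counted by the same rule. Over all protein-coding genes the shares were 39.6% with a peak and 28.1% with one within 1 kb of a TSS. Of 18 kinases and factors that act on FOS and JUN genes, 15 had a peak and 12 had one within 1 kb of a TSS. A rule that takes in the gene body gives long genes more room for a peak, and this list holds some, such as Mapk10 with 303387 bp. Mapk14, Rps6ka1 and Mef2a had no peak. Of 12 other basic leucine zipper genes that join AP-1, 7 had a peak and 6 had one within 1 kb, where the lowest IDR was at Mafk (3.91e-08), a small MAF protein. Batf, Maf and Mafg were among those without a peak. All 6 EGR and NAB genes had a peak within 1 kb of a TSS, the lowest being that of Egr1 itself (2.13e-08). Of 12 other activity-induced factors 9 had a peak and 7 had one within 1 kb. Among the peaks within 1 kb the lowest IDR was at Klf10 (3.15e-08). Nr4a2, Ier5 and Crem had no peak in the gene body or within 10 kb. Maff is in both the AP-1 list and the last one.

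The exact motif was in 50% of the family peaks, in 55% of the 20 peaks at other activity-induced factors, in 41.2% of the 17 at EGR and NAB genes, in 40.0% of the 10 at other AP-1 genes and in 25.9% of the 27 at kinases and factors. The median IDR of the family peaks, 5.21e-07, stood beside 1.25e-06 at EGR and NAB genes, 3.87e-06 at other activity-induced factors, 3.91e-05 at other AP-1 genes and 0.000600 at kinases and factors. By genes, 3 of 8 family members (37.5%) had a motif in a peak, and 10.5% of protein-coding genes did. The intervals of the lists overlap one another, and no difference between them was tested.

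**Figure D5:**
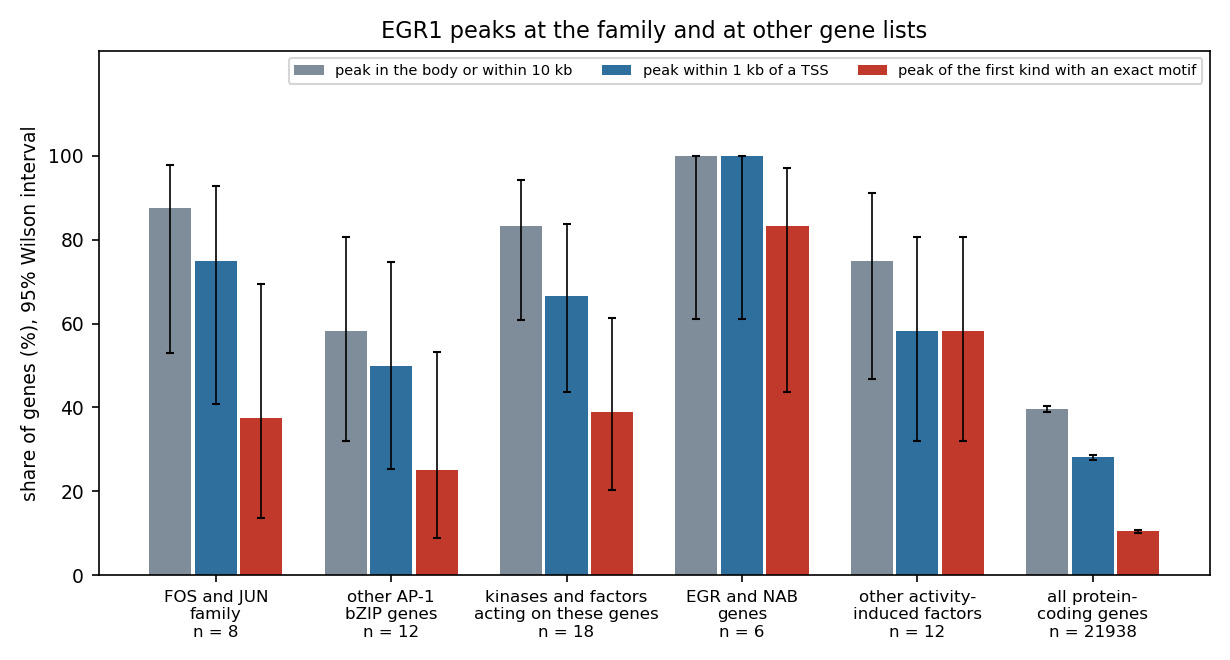
Share of genes (%) in each list with a peak in the gene body or within 10 kb of a TSS (grey), within 1 kb of a TSS (blue), or with an exact motif in a peak of the first kind (red), with 95% Wilson intervals that cover counting only. The family has 87.5%, 75% and 37.5%, and protein-coding genes have 39.6%, 28.1% and 10.5%.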

How the data were processed

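EGR1 ChIP-seq and input DNA of mouse frontal cortex were given as 2 samples. Reads were trimmed by the authors and aligned to mm10 with Bowtie. SPP gave the peaks of each replicate, and the authors kept those with an IDR of 2% or less (the submitters' processing notes also name cutadapt, Bowtie2 2.2.9 and bedtools 2.26.0). The deposited peak list gives the position and the IDR of each peak merged over 2 replicates, an error rate read like a q-value. The input DNA has no processed file here and was not analysed. Depth per peak is unknown.

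Positions were read as in BED files. Peak centres were set against GENCODE M21 genes and TSSs, and sequences were read from the RefSeq sequence of GRCm38.p6. The 76 peaks on scaffolds were left out of sequence results. Motifs were exact matches on both strands. The members and gene lists were chosen with earlier results of these data known. Every member and peak is named, with the neighbour of each peak nearer another gene and, in each other list, the gene with the lowest IDR within 1 kb of a TSS and genes without a peak, of which some are not reported here. The far upstream Junb and the downstream Fos sequences were added to those printed after their values were seen. No test was made, since 1 merged list has no replicates. Alternatives were the window, the overlap rule, the transcripts used, IDR limits, the origin of positions and the form of the motif. Python 3.11.15, numpy 2.4.6, pandas 2.3.3, scipy 1.17.1, pysam 0.24.0, matplotlib 3.10.9 and samtools 1.23.1 were used, and the assignment and motif search were tested on simulated data.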

Additional observations from a re-analysis of the deposited data

How the results depend on the processing

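Of 45 values recomputed under alternatives, 42 stayed within 1.5 times the reported count or, for the share of peaks with a motif, within its 95% interval. Keeping only peaks whose nearest TSS is of a family gene lowered the family peaks from 14 to 8. Allowing 1 mismatch raised the share with the motif from 50% to 92.9%, and the motif lengthened by a further G lowered it to 21.4% (8.30% of all peaks and 11.8% of those within 1 kb of a TSS). The genes with a peak were 5 to 8 of 8 and those with a peak near a TSS 4 to 6. These ranges stayed within 1.5 times the reported counts, which is a wide limit. The other gene lists and all protein-coding genes were counted at the reported settings only, so the recomputed gene counts have no background beside them. No paired analysis was possible because the 2 replicates are merged in 1 peak list and the input DNA has no processed file here, and for the same reason no replicate could be left out. The list holds no read counts, so the depth behind a missing peak, as at Fos, is unknown.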

Other observations

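Farther from the genes, the number of peaks differed among the members. The count over all protein-coding genes was not taken at 50 kb, and the density of genes around each member was not measured. Within 50 kb of their starts, Jun and Atf3 had no peak beyond the 1 already described and Fosl2 none beyond its 3, whereas Fosl1 had 7 and Junb 8. All 6 further Fosl1 peaks had their nearest TSS at another gene (4930481A15Rik, Drap1, Efemp2 or Cfl1), and those of Fosb were nearest to Gm44698, Ercc1 and Cd3eap. These neighbours were named after their values were seen. The 3 peaks around Fos differ from these, since the nearest TSS of each was that of Fos.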
